A study of Mus musculus with 6 samples.

Results

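Genes that make, rebuild or discard nicotinamide adenine dinucleotide (NAD) were examined in mouse calf muscle, 10 in number: Qprt, Nampt, Naprt, Nmnat1, Nmnat2, Nmnat3, Nmrk1, Nmrk2, Nadsyn1 and Nnmt. They were chosen by name, 10 of the 54532 genes in the deposited count table, and proposed as a family with the group differences of these data, that of Qprt among them, already in view. Their differences between the groups are therefore given as a description, by fold changes and errors. No p-value is printed for a member, and the counts of members past the threshold, given beside those of all genes, are no evidence about the family. The study sequenced messenger RNA of gastrocnemius, a fast-twitch calf muscle, in 3 control libraries and 3 libraries labelled transgenic. All came from 3-month-old C57BL/6J mice whose drinking water held 0.2% doxycycline from the age of 4 weeks on. Control mice carried Mck cre, a Cre recombinase under the muscle creatine kinase promoter, which acts in skeletal muscle fibres and heart. The other mice carried Mck cre and Tg Glut1-Hk2-Pfkfb3, a transgene named for a glucose carrier, a hexokinase and an enzyme that makes an activator of glycolysis. The samples are whole muscle, so RNA of vessels, connective tissue, nerve and blood is included, and fewer cells of a type cannot be told apart from less RNA per cell.

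NAD carries electrons in glycolysis, the citric acid cycle and fat oxidation, and is also consumed as a substrate by sirtuins, poly(ADP-ribose) polymerases and NAD glycohydrolases, which release nicotinamide. Cells build it from tryptophan by the de novo route, whose last dedicated enzyme is QPRT, from nicotinic acid through NAPRT, from nicotinamide through NAMPT, and from nicotinamide riboside through the kinases NMRK1 and NMRK2. All routes pass through an NMNAT enzyme, which adds the adenylyl group: NMNAT1 in the nucleus, NMNAT2 at the Golgi and in the cytosol, or NMNAT3 in mitochondria. The acid branch ends with NAD synthetase, Nadsyn1, while NNMT methylates nicotinamide and so removes it from reuse. In skeletal muscle NAMPT is the main route, and NMRK2 is the muscle-enriched riboside kinase.

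Sequence before the start sites is shown for 3 members: Qprt, which differed most between the groups, Nampt, the most abundant, and Nmrk2, the muscle kinase. The sequences are from RefSeq on GRCm38.p6, 5′ to 3′ on the strand of the gene, and come from the 250 bases ahead of the RefSeq start, ending where the first GENCODE M21 exon of that gene begins within them. For Nampt no exon lies within them, but another GENCODE transcript starts further upstream, at 32819545, so the bases printed fall in an intron of that transcript. Capitals mark matches on either strand to 4 motifs. The canonical E-box was searched as CACGTG, and the muscle form of the E-box, which myogenic factors are known to bind, as CAGCTG. The TATA box, a core promoter element, was searched as TATAAA. The GC box, which is known to be bound by Sp family factors, was searched as GGGCGG.
Qprt, chr7:127122227-127122279, minus strand, 53 bases: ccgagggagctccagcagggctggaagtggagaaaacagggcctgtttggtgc
Nampt, chr12:32820085-32820334, plus strand, 250 bases: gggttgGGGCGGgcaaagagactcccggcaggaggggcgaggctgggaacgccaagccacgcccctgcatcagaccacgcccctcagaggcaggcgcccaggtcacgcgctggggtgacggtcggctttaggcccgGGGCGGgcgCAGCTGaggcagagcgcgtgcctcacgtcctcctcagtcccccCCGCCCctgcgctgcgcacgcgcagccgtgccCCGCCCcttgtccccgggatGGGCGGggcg
Nmrk2, chr10:81202052-81202287, minus strand, 236 bases: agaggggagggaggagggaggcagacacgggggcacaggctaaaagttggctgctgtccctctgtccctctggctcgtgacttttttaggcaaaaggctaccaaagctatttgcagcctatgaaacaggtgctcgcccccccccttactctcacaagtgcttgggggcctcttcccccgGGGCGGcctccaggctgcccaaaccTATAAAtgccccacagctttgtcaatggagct
Over the whole 250 bases, Nampt held 5 GC boxes and 1 muscle E-box and no TATA box, Nmrk2 held 1 TATA box and 1 GC box, and Qprt held 1 muscle E-box, outside the bases printed, and none of the other 3 motifs. That E-box of Qprt lies inside the GENCODE bounds of the gene, not ahead of them. Of 32851 windows of that length, 6.02% held the canonical E-box on either strand, 13.0% the muscle E-box, 12.4% the TATA box and 32.7% the GC box. The table had an entry for 8 of the 10 members, Naprt and Nnmt being absent from it, and none of the 8 had a canonical E-box.

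The libraries held 19546456 to 24665024 counts. Control replicate 1 stood apart, with correlations of log2 CPM, the counts scaled to library size, of 0.947 to 0.961 with each of the remaining 5, whose own correlations were 0.962 to 0.988. Summed T and NK cell markers were 169 CPM in that library and 1.09 to 6.83 CPM in the others, and summed B cell markers 537 against 6.98 to 56.8 CPM. All 12 fibre markers, Acta1, Ckm and Myh4 among them, were detected in every library. Of these, 11 had a negative log2 fold change (median of the 12 -0.29) and 0 passed, where 7996 of 14973 tested genes were negative. None of the mouse genes that the transgene is named for passed the test as higher in libraries labelled transgenic. The log2 fold changes were -0.63 ± 0.31 (SE) for Slc2a1, which encodes Glut1, 0.44 ± 0.27 for Hk2 and -1.52 ± 0.57 for Pfkfb3. Hk2 was at 341 CPM in transgenic replicate 1 but at 168 and 182 CPM in transgenic replicates 2 and 3, against 156 to 187 CPM among controls. No adjusted p passed (0.290, 0.381 and 0.196, edgeR quasi-likelihood test). Pfkfb3 was nevertheless lower in every library labelled transgenic, at 120, 476 and 542 CPM, than in every control, at 579, 1096 and 1585 CPM. These genes thus did not verify the labels, and directions are drawn between libraries as labelled.

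Qprt was the member with the largest difference between the groups. QPRT joins quinolinate, the product of tryptophan breakdown, to a phosphoribosyl group and gives nicotinic acid mononucleotide. The gene (ENSMUSG00000030674) lies on chromosome 7 at 127107114 to 127122226, minus strand, and shares no exon bases with another gene. Control replicates 1, 2 and 3 held 48, 4 and 18 Qprt counts, whereas 911, 1247 and 1499 were counted in transgenic replicates 1, 2 and 3. Scaled for library size, that is 2.002, 0.189 and 0.830 CPM among controls against 37.6, 60.45 and 60.04 CPM in libraries labelled transgenic. The groups did not overlap, and control replicate 1, the library with the lymphocyte signal, was the highest control. The log2 fold change was 5.67 ± 0.55 (SE, 95% interval 4.39 to 6.95), the 5th highest of 14973 genes tested. In controls 12.4% of tested genes had a lower mean CPM than Qprt, and in libraries labelled transgenic 82.1% did.

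Among the 9 members kept by the filter on low counts, Qprt alone passed an adjusted p of 0.05 over all genes, as higher, and 0 passed as lower. Over all genes 0.788% passed as higher and 0.508% as lower in edgeR. Because the family was chosen with this contrast known, nothing is read from that count. Both the call on Qprt and the size of its difference depended on single libraries. With any 1 library left out the log2 fold change ran from 5.20, without control replicate 2, to 6.67, without control replicate 1. The call was lost without control replicate 3, transgenic replicate 2 or transgenic replicate 3, where the log2 fold change was still 5.54, 5.56 and 5.57. Over all 14973 genes tested, 0, 1 and 1 passed in those fits, so the loss was not particular to Qprt. Without control replicate 1 Qprt and Nmrk2 both passed, where 6.08% of all genes passed as higher. The CPM values of the groups did not overlap, all with the libraries labelled transgenic higher, in 3 of the 9 members, Qprt, Naprt and Nnmt, against 13.8% of all tested genes.

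**Figure D1:**
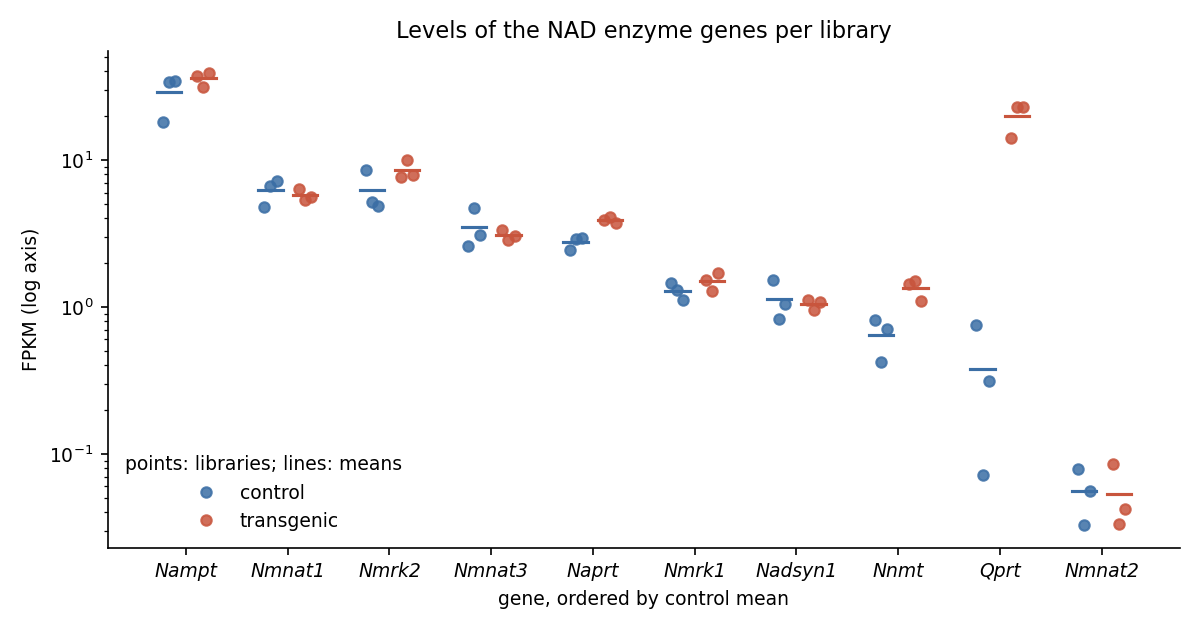
FPKM (counts per kilobase of gene, scaled to library size, log axis) of the 10 genes in each library, with points for libraries and lines for the means of 3 control and 3 transgenic libraries, ordered by control mean. Qprt moves from 9th to 2nd place, at 14.1 to 22.9 FPKM in libraries labelled transgenic against at most 0.752 FPKM in controls, while the next largest fold shift of a mean is that of Nnmt, from 0.646 to 1.34 FPKM.

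Levels of different genes were compared per length, in the deposited FPKM, as the plot of levels per library shows. In controls Nampt was highest, at 28.9 ± 9.34 FPKM (SD, n = 3), followed by Nmnat1 at 6.24 ± 1.27 and Nmrk2 at 6.20 ± 2.04, whose ranges overlapped. Nmnat3 (3.47 ± 1.11) and Naprt (2.76 ± 0.266) overlapped each other, as did Nmrk1 (1.29 ± 0.172) and Nadsyn1 (1.13 ± 0.358). Nnmt (0.646 ± 0.204), Qprt (0.379 ± 0.345) and Nmnat2 (0.0558 ± 0.0231) were lowest, with each of the 3 overlapping the next. In the libraries labelled transgenic Nampt was again first at 35.9 ± 3.86 FPKM, and Qprt was second at 19.9 ± 5.05, above Nmrk2 at 8.54 ± 1.26 in every library. The remaining order was Nmnat1, Naprt, Nmnat3, Nmrk1, Nnmt, Nadsyn1 and Nmnat2, and of these neighbours Nmrk1 overlapped Nnmt and Nnmt overlapped Nadsyn1.

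The phosphoribosyltransferases Nampt, Naprt and Qprt perform the same kind of step on different precursors, so their FPKM were also summed. The sum was 21.3, 37.1 and 37.7 FPKM in control replicates 1, 2 and 3 and 55.3, 58.4 and 65.4 FPKM in transgenic replicates 1, 2 and 3. Qprt made up 3.52%, 0.192% and 0.833% of it in controls and 25.5%, 39.1% and 34.9% in libraries labelled transgenic. The share of Nampt went from 89.4% ± 3.89 to 60.3% ± 6.81 (SD, n = 3 each). The Nampt level itself averaged 28.9 FPKM in controls and 35.9 FPKM in the other group.

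**Figure D2:**
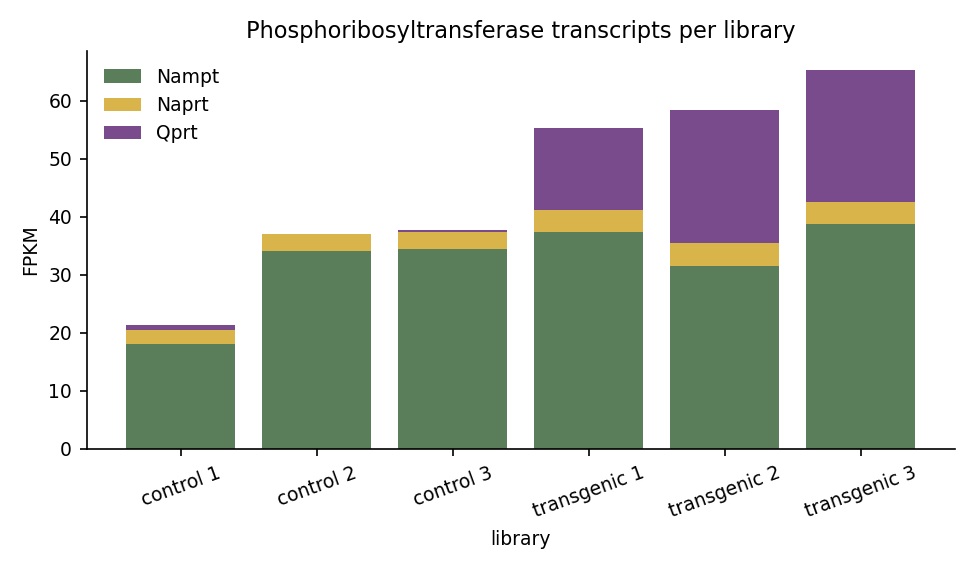
Stacked FPKM of Nampt, Naprt and Qprt in each of the 6 libraries. The Qprt segment is barely visible in controls and is 25.5% to 39.1% of the bar in libraries labelled transgenic, with control replicate 1 lowest in total at 21.3 FPKM.

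Nampt, the rate-limiting enzyme of the nicotinamide salvage route (ENSMUSG00000020572, chromosome 12, 32819545 to 32853349), was at 92.3, 173 and 174 CPM in control replicates 1, 2 and 3. The libraries labelled transgenic had 190.5, 159 and 195 CPM. Controls 2 and 3 lay within the range of the other group, and the low value was that of control replicate 1. The log2 fold change was 0.31 ± 0.24 (interval -0.25 to 0.88) with all libraries and 0.07 without control replicate 1. Naprt, which starts NAD synthesis from nicotinic acid (ENSMUSG00000022574, chromosome 15, 75890956 to 75894481), had 5.80, 6.80 and 6.87 CPM among controls against 9.26, 9.55 and 8.69 CPM in libraries labelled transgenic. The groups did not overlap, and the log2 fold change was 0.50 ± 0.16 (interval 0.13 to 0.87), between 0.42 and 0.54 with any 1 library left out. Its exons share 277 bases, 11.8% of their length, with Eef1d on the same strand, which was at 103 to 136 CPM, so Naprt counts are uncertain. Eef1d itself had a log2 fold change of -0.10 ± 0.13.

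The riboside kinases differed from each other in level. NMRK1 and NMRK2 both phosphorylate nicotinamide riboside, and Nmrk2 made up 79.9% to 85.4% of their summed FPKM in controls and 82.3% to 88.6% in libraries labelled transgenic. Nmrk2 (ENSMUSG00000004939, chromosome 10, 81198170 to 81202051) was at 16.0, 9.59 and 9.03 CPM in control replicates 1, 2 and 3 and at 14.4, 18.5 and 14.6 CPM in transgenic replicates 1, 2 and 3. Control replicate 1 sat inside the range of the libraries labelled transgenic, while the other controls lay below all of them. The log2 fold change was 0.45 ± 0.24 (interval -0.11 to 1.02), and 0.77 ± 0.16 without control replicate 1. Its exons share 270 bases, 14.6% of their length, with Atcayos, an antisense gene at 90.7 to 204 CPM. Whether the counting used strand is not given in the sources used here. Reads there thus cannot be assigned with certainty, although Atcayos had a log2 fold change of only -0.03 ± 0.30. Nmrk1 (ENSMUSG00000037847, chromosome 19, 18631950 to 18652194) was at 3.73 to 4.92 CPM among controls against 4.31 to 5.69 CPM in libraries labelled transgenic. These ranges overlapped, with a log2 fold change of 0.22 ± 0.21 (interval -0.26 to 0.70).

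The final steps of synthesis gave small estimates with intervals that included 0. Nmnat1, the nuclear enzyme (ENSMUSG00000028992, chromosome 4, 149467572 to 149485202), had 14.7, 20.3 and 21.9 CPM among controls against 19.5, 16.3 and 16.9 CPM in libraries labelled transgenic. This is a log2 fold change of -0.11 ± 0.18 (interval -0.53 to 0.30). Nmnat3, the mitochondrial enzyme (ENSMUSG00000032456, chromosome 9, 98287435 to 98420438), had 13.1, 23.7 and 15.4 CPM among controls against 16.9, 14.2 and 15.1 CPM in libraries labelled transgenic, a log2 fold change of -0.17 ± 0.23 (interval -0.70 to 0.36). Both genes overlapped between groups, and the controls were the more scattered group. Nmnat1 held 64.1% ± 5.64 of the summed FPKM of the NMNAT genes in controls and 64.8% ± 0.298 in libraries labelled transgenic. Nmnat2, known for its role in axons (ENSMUSG00000042751, chromosome 1, 152954993 to 153119261), had 11, 4 and 7 counts in controls and 12, 4 and 6 in libraries labelled transgenic, too few to pass the filter, and the groups overlapped. Nadsyn1, which amidates the product of the acid branch (ENSMUSG00000031090, chromosome 7, 143795584 to 143822849), had 5.09, 2.74 and 3.46 CPM among controls against 3.72, 3.15 and 3.56 CPM in libraries labelled transgenic. These lay within the control range, with a log2 fold change of -0.12 ± 0.27 (interval -0.74 to 0.51).

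Nnmt, the nicotinamide methyltransferase (ENSMUSG00000032271, chromosome 9, 48591877 to 48605153), was low throughout, with 31, 14 and 24 counts in controls and 55, 49 and 43 in libraries labelled transgenic. In CPM these were 1.29, 0.662 and 1.11 against 2.27, 2.38 and 1.72. Every library labelled transgenic lay above every control, with a log2 fold change of 1.04 ± 0.31 (interval 0.30 to 1.77) that ranged from 0.81 to 1.25 with any 1 library left out. Nnmt is also expressed in fat and in connective tissue cells. The 10 markers of fibro-adipogenic progenitors, all detected in every library, summed to 2511, 1607 and 2461 CPM among controls against 2686, 2925 and 2999.8 CPM in libraries labelled transgenic, which did not overlap. Of all tested genes, 13.8% were likewise higher without overlap. The 10 adipocyte markers summed to 1611 to 1740 CPM and 1712 to 2045 CPM, which overlapped. Log2 fold changes were positive for 10 of 10 fibro-adipogenic, 10 of 10 macrophage, 9 of 9 endothelial and 7 of 10 Schwann cell markers, where 6977 of 14973 tested genes were positive. They were positive for 4 of 9 tested adipocyte, 3 of 5 red blood cell and 1 of 2 neutrophil markers. For T and NK cell markers 0 of 4 were positive, and for B cell markers 0 of 2. In each of these lists 0 passed, where 1.3% of all tested genes did. The part of these cells in the Nnmt difference was not tested.

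The enzymes upstream of Qprt were examined next, from a list of 11 genes of the tryptophan route. Only Afmid, Kmo, Kyat1 and Kyat3 passed the filter, and 0 of these 4 passed the threshold in either direction (edgeR, adjusted p from 0.211 to 0.873), with 1, Kyat3, at an unadjusted p under 0.05. Of all genes tested, 1.3% passed the threshold and 20.8% had an unadjusted p under 0.05. Kmo, which hydroxylates kynurenine, had 110 counts in control replicate 1 and 7 to 16 in the other 5 libraries. Haao, which makes the precursor of quinolinate and so acts directly ahead of QPRT, had 152 counts in control replicate 1 and 5 to 13 elsewhere. Kynu, the kynureninase between them, had 38 counts there and 0 to 2 elsewhere. Control replicate 1 was thus the highest library for each, as it was for lymphocyte markers and, at 303 CPM against 118 to 297, for summed macrophage markers. The 297 CPM were those of transgenic replicate 2, which had 13 Haao, 0 Kynu and 14 Kmo counts. The part of lymphocytes and macrophages in the counts of these 3 genes was not tested. In the libraries labelled transgenic, where Qprt had 911 to 1499 counts, Haao had 5, 13 and 6, Kynu 0, 0 and 2, and Kmo 9, 14 and 16. Tdo2 and Ido1, which open the tryptophan ring, had 2 to 27 and 2 to 9 counts over the 6 libraries, and Acmsd, which diverts the precursor of quinolinate, 0 to 3. Kyat3, an aminotransferase that leads kynurenine to kynurenic acid, was at 16.1 ± 3.14 CPM among controls against 10.5 ± 2.99 CPM in libraries labelled transgenic (log2 fold change -0.62 ± 0.24, edgeR adjusted p = 0.211).

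**Figure D3:**
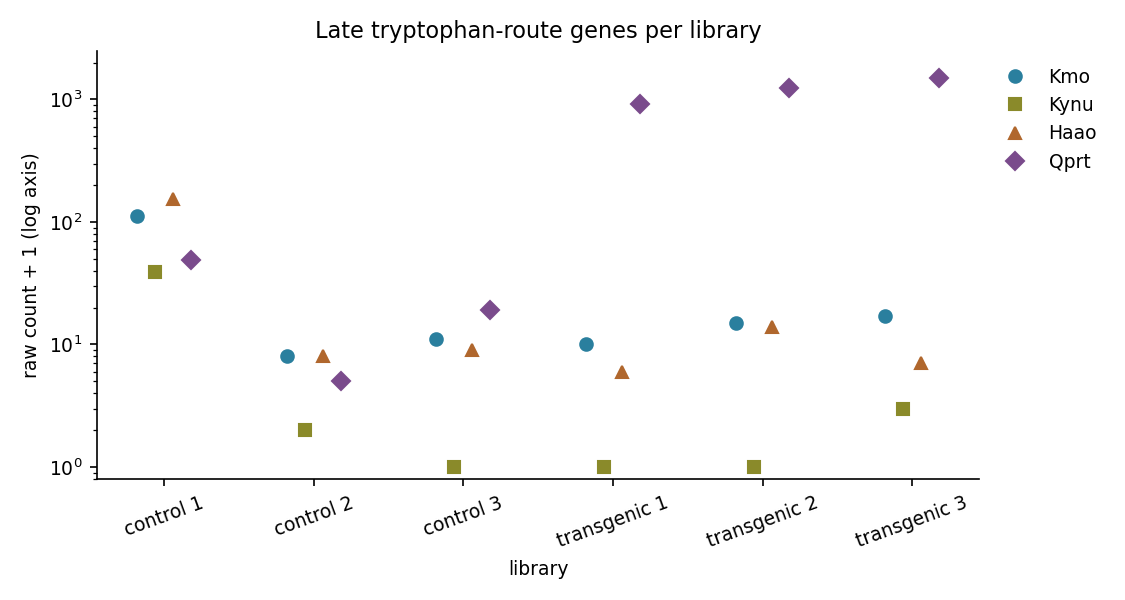
Raw count plus 1 (log axis) of the late tryptophan-route genes Kmo, Kynu, Haao and Qprt in each library. Qprt is at 911 to 1499 counts in libraries labelled transgenic while the genes ahead of it are at 0 to 16 there, and control replicate 1 has the highest count of Kmo, Kynu and Haao.

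The rest of the pathway gave no call. Of 85 genes in 8 lists around NAD, 72 were tested and 0 passed in either direction in edgeR, against 1.3% of all genes tested. At an unadjusted p under 0.05 there were 17 of 72, or 23.6%, against 20.8% of all genes. DESeq2 called 1, Art3, where 1075 of all 14973 genes passed. With limma on log2(FPKM + 1) and log2(FPKM + 0.1) 0 passed, where 112 and 121 of all genes did. The median log2 fold change of the 72 was 0.01 and that of all genes -0.03. The groups did not overlap in 19 of the 72, or 26.4%, against 27.4% of all genes.

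Consumers of NAD and their relatives had estimates in both directions. Over all genes tested, 6977 of 14973 estimates were positive and 1.3% of genes passed. Of 7 sirtuins, the NAD-dependent deacylases, 5 had positive and 2 negative log2 fold changes, and 0 passed. Sirt1, the nuclear deacetylase, was at 20.1 ± 3.18 CPM among controls against 14.7 ± 1.99 CPM in libraries labelled transgenic (-0.44 ± 0.17, edgeR adjusted p = 0.202), and Sirt4, a mitochondrial member, at 11.2 ± 0.204 and 14.1 ± 1.40 CPM (0.34 ± 0.14, adjusted p = 0.231). Of the 17 genes of the PARP list, most of which encode enzymes that add or remove ADP-ribose, 8 were positive and 9 negative, and 0 passed. The 2 with the smallest p were Parp6 at -0.37 ± 0.13 (adjusted p = 0.176) and Parp16 at 0.65 ± 0.25 (adjusted p = 0.196). Among 13 tested glycohydrolases, ADP-ribosyltransferases and nucleotidases 0 passed. Art3, an ADP-ribosyltransferase relative of the cell surface, was at 258 ± 67.4 CPM among controls against 168 ± 8.90 CPM in libraries labelled transgenic (-0.62 ± 0.20, adjusted p = 0.147), and Nt5c1a, a cytosolic nucleotidase of muscle, at 6.62 ± 1.46 and 4.08 ± 0.461 CPM (-0.70 ± 0.22, adjusted p = 0.153).

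Carriers, NADP synthesis, methyl donors and NADH shuttles also had 0 genes past the threshold, against 1.3% of all genes tested. Slc29a1, an equilibrative nucleoside carrier, was at 37.9 ± 3.08 CPM among controls against 51.5 ± 6.67 CPM in libraries labelled transgenic (log2 fold change 0.44 ± 0.14, edgeR adjusted p = 0.138), and its relative Slc29a2 had 0.59 ± 0.30 (0.305). Nadk2, the mitochondrial NAD kinase that makes NADP, was at 73.5 ± 11.1 and 54.5 ± 1.08 CPM (-0.43 ± 0.13, adjusted p = 0.141). Nnt, the transhydrogenase that C57BL/6J mice carry in a deleted form, had 6 to 36 counts per library (-0.81 ± 0.61, adjusted p = 0.473). Mat2a, which makes the methyl donor that NNMT uses, was at 134 ± 17.1 and 186 ± 24.0 CPM (0.47 ± 0.15, adjusted p = 0.145), and Ahcy, which clears the product of methylation, at 41.7 ± 9.35 and 54.4 ± 3.37 CPM (0.38 ± 0.18, adjusted p = 0.263). Gpd2, the mitochondrial arm of the glycerol phosphate shuttle, was at 239.5 ± 54.5 and 162 ± 23.4 CPM (-0.56 ± 0.19, adjusted p = 0.167), and Got2, of the malate-aspartate shuttle, had 0.35 ± 0.25 (adjusted p = 0.465). Got2 was at 740 CPM in transgenic replicate 1 but at 399 and 416 CPM in transgenic replicates 2 and 3, against 357 to 439 CPM among controls.

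The number that passed depended on control replicate 1. Without it 10 of the 72 passed in edgeR, or 13.9%, against 13.1% of all genes (6.08% higher and 6.99% lower). Art1, Art3, Art5, Nadk2 and Sirt1 fell, with log2 fold changes of -0.53, -0.82, -0.55, -0.55 and -0.56. Mat2a, Nt5c2, Parp10, Sirt6 and Zc3hav1 rose, at 0.55, 0.60, 0.73, 0.70 and 0.87. For Parp10 and Zc3hav1 the estimates with all 6 libraries were 0.047 and -0.031, and control replicate 1 had the highest CPM of both genes, 12.4 and 28.9. The edgeR adjusted p-values of these 10 ran from 0.0118 for Art3 to 0.0491 for Mat2a. Leaving out any other library gave 0 calls among the 72, where 0 to 54 of all 14973 genes passed.

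**Figure D4:**
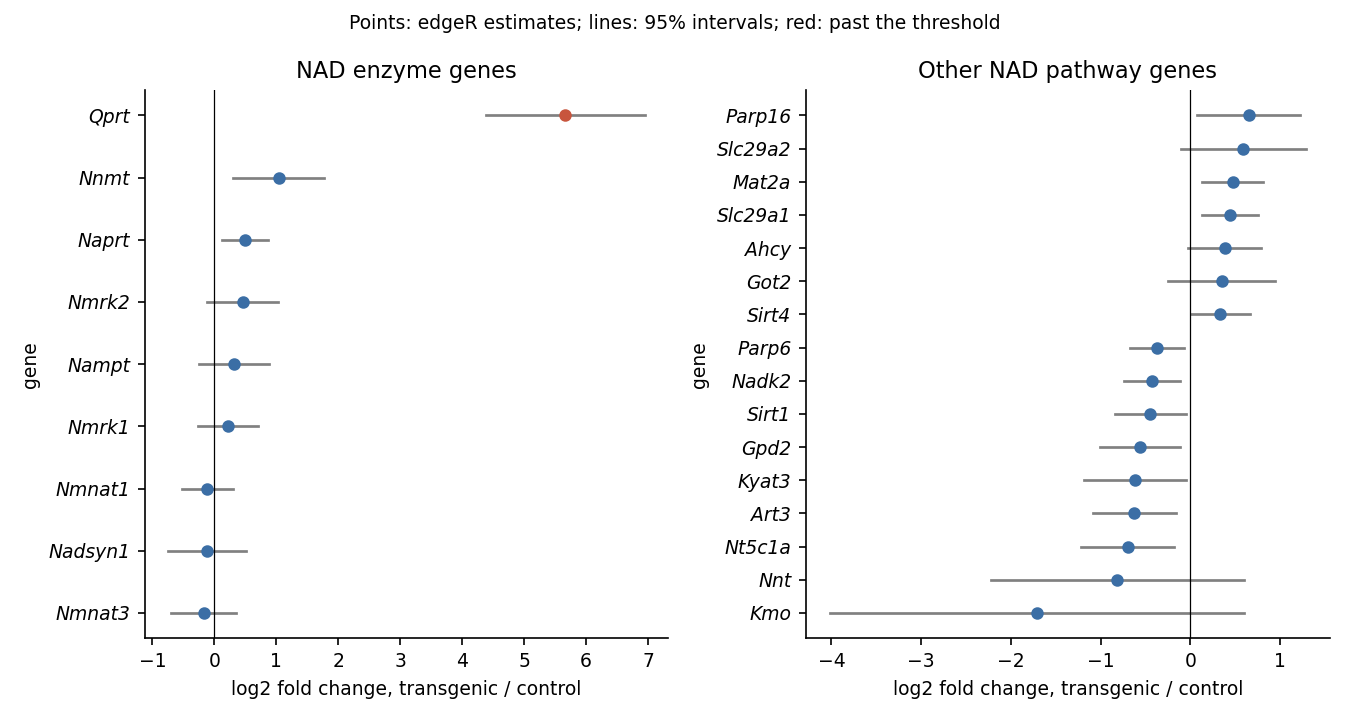
The log2 fold changes between libraries labelled transgenic and control (edgeR estimates with 95% intervals) of the 9 tested members, left, and of 16 other NAD pathway genes, right, on axes of different width. Qprt, in red, stands at 5.67, and the other 8 members lie between -0.17 and 1.04.

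**Figure D5:**
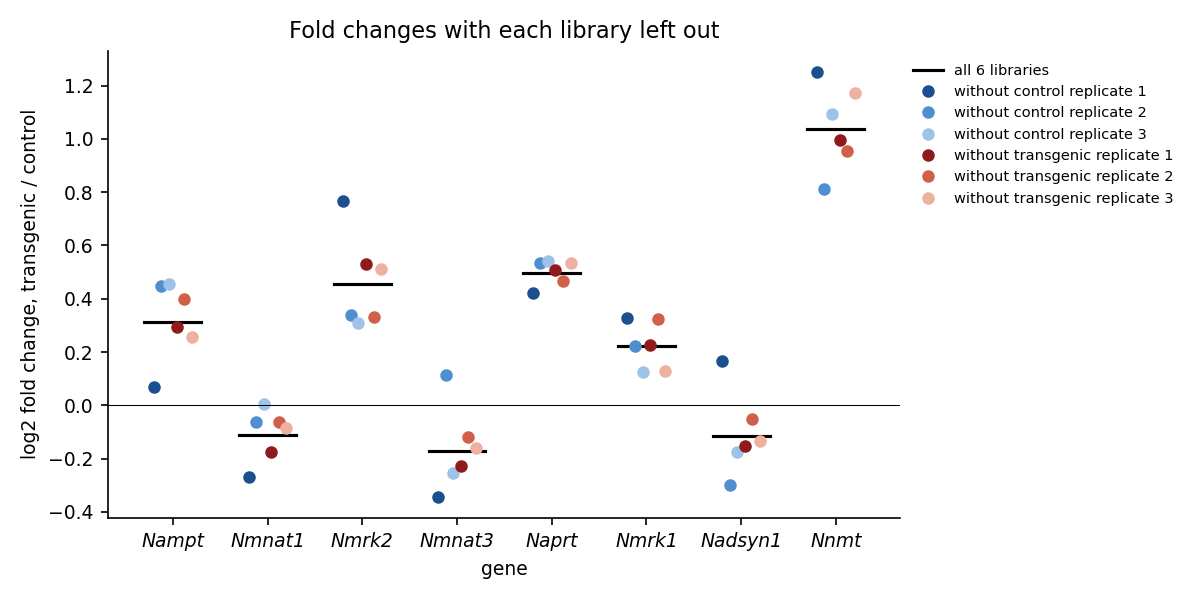
The log2 fold changes of the 8 tested members other than Qprt with all 6 libraries (black line) and with each library left out in turn (points). Nnmt, Naprt, Nmrk2, Nampt and Nmrk1 stay above 0 in all 6 fits, and Nmnat1, Nmnat3 and Nadsyn1 cross 0 in 1 fit each.

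The genes nearest to Qprt and to Nmrk2 across the 6 libraries were sought among 12784 protein-coding genes, by the root mean square difference of log2 CPM after each gene was centred on its mean. For Qprt these included Slc15a5, an orphan member of the oligopeptide carrier family, at 0.82 log2 units, Sln, the sarcolipin peptide of the sarcoplasmic reticulum, at 1.36, and Slc2a5, the fructose carrier GLUT5, at 1.44. Slc15a5 had 4.05, 6.64 and 7.73 CPM in transgenic replicates 1, 2 and 3 and Slc2a5 had 0.826, 1.16 and 1.16, both with at most 2 counts in any control. As for Qprt, transgenic replicate 1 was the lowest of the 3 libraries labelled transgenic for each of these 3 genes. For Nmrk2 the distances were much smaller, from 0.0527 to 0.0786 log2 units, for Klhl29, Wdr78, Srebf2 and Tbx18. Distances were not scaled to a gene's own spread, which was far wider for Qprt, so the 2 sets cannot be ranked by likeness. Wdr78 and Tbx18 were low, with 9 to 18 and 13 to 31 counts per library. Srebf2, a regulator of sterol synthesis, was at 37.5, 21.8 and 22.0 CPM among controls against 34.5, 38.2 and 33.9 CPM in libraries labelled transgenic. Like Nmrk2, these 4 genes were higher in control replicate 1 than in the other controls. The genes near Qprt and those near Nmrk2 were picked for likeness over these same libraries. Such shared patterns therefore follow from the choice and are no evidence of a link.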

How the data were processed

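The submitters' processing notes name GRCm38 as build, and HISAT2 2.0.5 and featureCounts 1.5.0-p3, without roles. Neither the strand setting nor the annotation used is given in the sources used here. The authors deposited raw counts per gene and FPKM. In genes with at least 100 counts, the deposited FPKM equal the count divided by gene length and by 1 library size per sample, within 0.1%.

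Counts of all genes were tested in edgeR 4.0.16 under R 4.3.3 (TMM scaling, filterByExpr, quasi-likelihood test, two-sided, Benjamini-Hochberg adjustment over 14973 genes, threshold 0.05). CPM use the TMM library sizes, in which 3 counts equal 0.120 to 0.145 CPM. Errors after log2 fold changes are SEs, others SDs (n = 3). No label ties a library to its own animal, so a p-value reflects only the spread among these samples, which may be technical. Members and gene lists were chosen with earlier results of these data known. All members were named, and of each other list the genes past the threshold, up to 4, or the 2 with the smallest p. Genes outside that rule (upstream enzymes, overlapping genes, calls without 1 library) were named after their values were seen. A gene near Qprt is not reported here. Coordinates are the deposited ones, and exons those of GENCODE M21, where 9 of 10 members had the same bounds, Nmrk1 being the exception. On simulated counts for 14973 genes, 50 changed per fold size, the edgeR step found 3 of the 1.5-fold, 24 of the 2-fold and 48 of the 4-fold changes, and 6 false among 131 calls. The simulated counts had only the average spread at each level, no outlying library, and changes only in genes above 2 CPM. These rates therefore need not hold for the real libraries. Alternatives were DESeq2 1.42.0, limma 3.58.1 on log2(FPKM + 1) and log2(FPKM + 0.1), other scalings and filters, a stricter threshold, a replicate block and fits without each library.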

Additional observations from a re-analysis of the deposited data

How the results depend on the processing

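Over all genes tested, the 194 calls became 1075 with DESeq2, 124 with no filter, 112 and 121 with limma on log2(FPKM + 1) and log2(FPKM + 0.1), and 1 at an adjusted p under 0.01. They ranged from 0 (without control replicate 3, 2116 genes at an unadjusted p under 0.05) to 1956 (without control replicate 1) with 1 library left out. Scaling by library totals alone moved the median log2 fold change over all genes from -0.03 to 0.12 and the share of calls that were higher from 60.8% to 79.2%. Members past the threshold ranged from 0 to 2 with 1 library left out and were 0 at an adjusted p under 0.01. The other NAD pathway genes ranged from 0 to 10, and DESeq2 called 1 of them. With the replicate number as a block there were 5 calls over all genes, and 0 among members. The numbers share no stated animal or batch, and the correlations of deviations between same-numbered libraries were -0.02, -0.17 and 0.16, so they were not taken as pairs. Qprt had a log2 fold change of 5.76 under the block. Estimates of members that never passed changed sign in 5 fits. With library totals alone Nmnat1 was at 0.055 and Nadsyn1 at 0.0042, and with 1 library left out Nmnat1 ranged from -0.27 to 0.0036 (highest without control replicate 3), Nmnat3 from -0.34 to 0.11 (control replicate 2) and Nadsyn1 from -0.30 to 0.17 (control replicate 1). The cause was not tested. For the 9 tested members, 116 of 126 estimates under alternatives kept direction and side of the threshold. Most of these were of members that did not pass in the main fit, so that count says little about the call on Qprt. The 4 estimates that lost a call were all of Qprt. They came without control replicate 3, transgenic replicate 2 or transgenic replicate 3, and under the replicate block. The floor of 3 counts covers counting error only, whereas the edgeR intervals include the spread among libraries.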
